A study of Mus musculus with 29 samples.

Results

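The 9 inflammatory messages described here were 4 chemokines (Cxcl2, Ccl3, Ccl4 and Ccl2) and 5 genes of cytokine signalling (Il1a, Il1b, Tnf, Il6 and the receptor antagonist gene Il1rn), out of 12394 genes measured on the array. They were matched by gene symbol. A gene was read from its brightest probe set with 1 gene symbol over the arrays of a tissue. Il1rn had 3 such probe sets and each other gene of the set had 1. The mice carried MLL-ENL-ERtm, a leukaemia fusion protein joined to a mutated estrogen receptor domain, so that its function depended on tamoxifen. All mice, wild-type controls included, received tamoxifen at 300 mg/kg chow, so no group was free of the drug. RNA came from primary cells of whole bone marrow or spleen. The deposited values are log2 levels after RMA, a background-corrected and normalized summary of the probes of a probe set.

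In marrow, the fusion mice were sampled in a highly proliferating state after 7 months of tamoxifen (n = 4), in a transition period of lower proliferation and high DNA damage signalling from 7 to 8 months (n = 4), and in senescence at 8 months (n = 3). The 4 wild-type marrows came from mice treated for 8, 7, 7 and 7 months. In spleen, the fusion mice were sampled at an early stage after 7 months (n = 3), during progression at 10, 10 and 9 months (n = 3) and at a terminal stage at 21, 23 and 19 months (n = 3). The 5 wild-type spleens had been treated for 24, 8, 9, 11 and 11 months. The labels call the samples of a group biological replicates, and do not say whether marrow and spleen came from the same mice.

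Chemokines are small secreted proteins that draw leukocytes into a tissue by binding receptors on their surface. Cxcl2 acts on neutrophils through Cxcr2, whereas Ccl2, Ccl3 and Ccl4 act on monocytes, macrophages and lymphocytes through CC-type receptors. Interleukin 1, tumor necrosis factor and interleukin 6 are made largely by myeloid cells after stimulation. Several of these messages are induced within minutes through NF-kappaB, are short-lived because AU-rich elements mark them for decay, and belong to the secretions described for senescent cells.

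Promoter sequences of Cxcl2, Ccl3 and Tnf are shown because Cxcl2 and Ccl3 had the largest differences of the set in marrow, and because Tnf was among the 3 genes of the set that passed the test in terminal spleen. They are the 250 bases before the annotated start, 5′ to 3′ on the gene's strand, from RefSeq on build GRCm38.p6. The windows are chr5:90903649-90903898 on the plus strand for Cxcl2, chr11:83649379-83649628 on the minus strand for Ccl3 and chr17:35202008-35202257 on the minus strand for Tnf. Capitals mark matches to the kappaB motif GGNNTTTCC in Cxcl2 and to the TATA box TATAAA in Tnf.
Cxcl2: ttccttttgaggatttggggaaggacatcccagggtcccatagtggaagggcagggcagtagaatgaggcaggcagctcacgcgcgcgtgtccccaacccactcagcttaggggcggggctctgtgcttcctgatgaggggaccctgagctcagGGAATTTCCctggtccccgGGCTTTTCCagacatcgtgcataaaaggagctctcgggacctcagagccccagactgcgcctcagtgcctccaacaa
Ccl3: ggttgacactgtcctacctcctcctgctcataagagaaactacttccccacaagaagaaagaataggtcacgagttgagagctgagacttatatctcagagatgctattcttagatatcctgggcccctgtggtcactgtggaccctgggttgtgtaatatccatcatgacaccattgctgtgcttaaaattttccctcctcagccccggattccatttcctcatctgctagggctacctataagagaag
Tnf: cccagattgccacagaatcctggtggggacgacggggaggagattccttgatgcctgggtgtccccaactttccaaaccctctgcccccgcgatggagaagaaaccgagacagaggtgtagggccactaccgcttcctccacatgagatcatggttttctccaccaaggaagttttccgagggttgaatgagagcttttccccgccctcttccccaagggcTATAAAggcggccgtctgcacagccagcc

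Cxcl2 held 2 kappaB matches, at positions -96 to -88 and -77 to -69 relative to its start. Tnf held the TATA letters at positions -29 to -24. Ccl3 matched none of the 4 motifs searched in this window. Of the 9 genes, 7 had a promoter entry, and Ccl2 and Ccl4 had none. On either strand, the kappaB letters lay in 3 of the 7 (Cxcl2, Il6 and a later start of Il1rn), the AP-1 letters TGANTCA in 3 (Il6, Il1a and Il1rn), TATAAA in 3 (Il1a, Il1b and Tnf) and the C/EBP letters TTGCNNAA in 1 (Il6). Over 32851 promoter windows of this length, the shares in the same order were 4.93%, 6.75%, 12.4% and 9.56%. These shares count single windows, whereas a gene was counted when any of its annotated starts matched. A match is a description of the letters and says nothing of a factor's binding.

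The tissues were read apart, since the median level of a marrow array lay between 8.11 and 8.29 and that of a spleen array between 6.73 and 6.90. S100a8 and Ngp, granule and calcium-binding genes of neutrophils, averaged 15.2 in marrow, and Ms4a1 and Cd79b, B-cell surface genes, averaged 11.2 and 10.8 in spleen. A group was called near background when its mean lay within 1 log2 unit of the tissue's mean lower quartile, which put the limit at 7.23 in marrow and 5.65 in spleen. Ccl2, Il6 and Il1a were near background in every group of both tissues. Genes of another tissue were high on 1 proliferation marrow array (adipocyte and muscle genes, 3.10 above wild type) and on wild-type spleen array 3 (pancreas genes, at a mean of 11.86). The same pancreas genes averaged 7.82 on early spleen array 1 and 7.30 on wild-type spleen array 5, against 5.11 to 5.62 on the other 11 spleen arrays. Comparisons with wild type within a tissue share their controls and are not independent. Probe sets differ in how they bind, so levels were compared between groups for 1 probe set and not between genes.

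Cxcl2 and Ccl3 were higher in transition marrow than in wild-type marrow, and they were the only genes among the 9 that passed the test there. Ccl4, Tnf, Il1b and Il1rn also had higher means, with unadjusted p-values under 0.05 that did not hold after adjustment over all genes, a level that 10.5% of all genes reached. Ccl2, Il6 and Il1a were near background. These are whole-tissue values, in which fewer cells of a type and less RNA per cell cannot be told apart. The test throughout was limma on all arrays of a tissue, with Benjamini-Hochberg adjustment over 12394 genes and a threshold of 0.05. By this rule 2 of the 9 were called in transition marrow, both higher, against 0.42% of all genes called in either direction and 0.186% called higher.

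The neutrophil chemokine Cxcl2 was measured at 12.86, 9.54, 10.24 and 10.66 in the 4 transition marrows. In wild-type marrow it was at 8.41, 8.11, 7.00 and 6.94. In the proliferating marrows it was near background, at 7.17, 7.04, 7.23 and 7.45, and in the senescent marrows it was at 8.40, 6.27 and 7.37. Every transition array lay above every array of the other groups, and those groups overlapped each other. The first transition array stood 2.21 above the next highest. Group means were 7.22 ± 0.17 (SD, n = 4) in proliferation, 10.83 ± 1.43 (n = 4) in transition, 7.35 ± 1.07 (n = 3) in senescence and 7.62 ± 0.76 (n = 4) in wild type. Transition exceeded wild type by 3.21 ± 0.60 log2 units (SE, 95% interval 1.93 to 4.49), which is 9.25-fold, with an adjusted p of 0.0293 by limma. Wild-type arrays 3 and 4, at 7.00 and 6.94, lay under the near-background limit of 7.23. The fold is thus one of probe signals, and its size is not a measured change in message. The call was lost when transition array 3 or 4 or wild-type array 3 or 4 was left out (adjusted p by limma 0.0552, 0.0751, 0.131 and 0.127), where the difference stayed in the same direction.

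Ccl3, a ligand of Ccr1, was measured at 11.21, 9.30, 9.29 and 9.39 in the transition marrows. Its proliferating marrows were at 7.77, 7.42, 7.73 and 6.50, its senescent marrows at 6.20, 7.10 and 7.59, and its wild-type marrows at 5.83, 6.59, 6.94 and 6.97. All 4 transition arrays again lay above the other 11, while senescent and wild-type means (6.96 ± 0.71, n = 3, and 6.58 ± 0.53, n = 4) were near background. Against wild type the transition mean of 9.80 ± 0.94 (n = 4) was higher by 3.22 ± 0.44 (SE), with an adjusted p of 0.00304 by limma. The wild-type level is near background, so this is a difference of probe signals and its size is not a measured change in message. By p it ranked 14 of all genes tested, and Cxcl2 ranked 37.

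Ccl4, a close relative of Ccl3, lay at 9.27, 8.24, 8.38 and 8.46 in transition marrow. The proliferating marrows were at 8.10, 8.22, 7.89 and 8.05, the senescent ones at 7.64, 7.99 and 8.14 and the wild-type ones at 7.80, 8.01, 7.93 and 7.92. The 4 transition arrays were the highest of the 15, although 8.24 in transition and 8.22 in proliferation nearly touched. The difference from wild type was 0.67 ± 0.19 (SE), with an adjusted p of 0.194 by limma. Without the first transition array it was 0.44. Ccl2, the main monocyte chemokine, ranged from 5.90 to 6.56 over all 15 marrow arrays, and its group means of 6.05 to 6.29 were near background with overlapping values.

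Tnf, an early inflammatory cytokine, lay at 10.22, 8.70, 8.60 and 9.48 in transition marrow and at 8.02, 8.55, 8.47 and 8.53 in wild type. The 4 transition values were above every wild-type value, but the lowest of them, 8.60, exceeded the highest wild-type array, 8.55, by little. The proliferating marrows were at 8.95, 8.45, 8.61 and 8.60 and the senescent ones at 8.54, 8.21 and 8.08, which overlapped wild type. The difference between transition and wild type was 0.86 ± 0.28 (SE), with an adjusted p of 0.29 by limma. It was 0.54 without the first transition array.

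Il1b, which encodes the inflammasome-processed form of interleukin 1, was bright in all marrow groups. It lay at 12.60, 12.00, 11.67 and 11.94 in transition, at 12.03, 11.74, 11.45 and 12.14 in proliferation, at 11.59, 11.03 and 11.63 in senescence, and at 11.52, 12.24, 10.99 and 10.86 in wild type. Wild-type values overlapped those of each fusion group. Transition exceeded wild type by 0.65 ± 0.28 (SE), with an adjusted p of 0.438 by limma. Il1a, the form of interleukin 1 that acts without inflammasome cleavage, ranged from 5.44 to 7.08 over the marrow arrays, and Il6, a cytokine of the acute phase response, from 4.79 to 6.42. Neither separated any pair of marrow groups.

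Il1rn encodes the antagonist that occupies the interleukin 1 receptor without signalling. Its brightest marrow probe set, 1451798_at, lay at 11.55, 11.49, 11.07 and 11.14 in proliferation, at 10.30, 11.42, 11.34 and 11.52 in transition, and at 11.05, 11.05 and 11.65 in senescence. Wild-type marrow was at 10.74, 10.83, 10.16 and 10.28. On this probe set, all of the 11 fusion arrays but the first transition array lay above every wild-type array. The differences from wild type were 0.81 ± 0.26 (SE) in proliferation, 0.64 ± 0.26 in transition and 0.75 ± 0.28 in senescence, with adjusted p-values by limma of 0.266, 0.406 and 0.66. Leaving out the first transition array raised the transition difference to 0.92, with an adjusted p of 0.0224, so that 1 array decided that call. The count of the set's genes called in transition was then 3, and all genes called rose from 52 to 664.

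**Figure D1:**
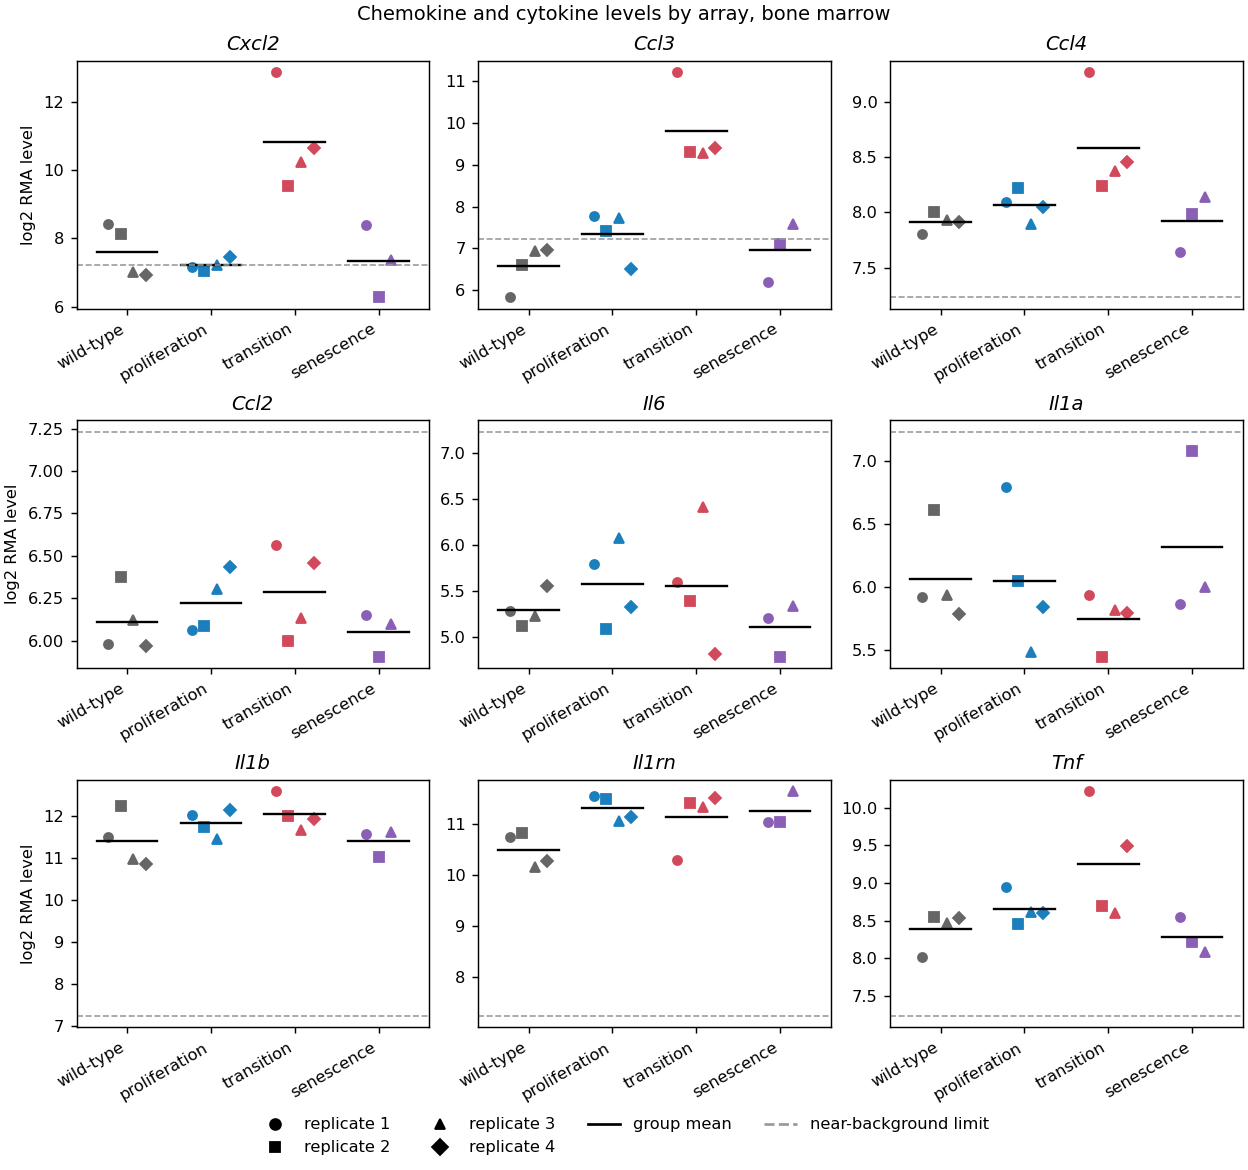
Log2 RMA levels of the 9 genes in bone marrow, with 1 point per array, a line at each group mean and a dashed line at the near-background limit of 7.23. The 4 transition arrays lie above the other 11 for Cxcl2, Ccl3 and Ccl4, and the first transition array reaches 12.86 for Cxcl2 and 11.21 for Ccl3.

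Counted over the set, 4 of the 9 genes (Cxcl2, Ccl3, Ccl4 and Tnf) had all transition arrays above all wild-type arrays, against 1.9% of all genes in that direction. The median difference from wild type over the 9 was 0.65, beside 0.04 over all genes, and the 3 genes not yet given differences spanned -0.32 to 0.26. In proliferating marrow 0 of the 9 were called by limma (background 0.282% of all genes), and 1, Il1rn, had an unadjusted p under 0.05, as 9.9% of all genes did. The other 8 differences from wild type there spanned -0.39 to 0.77, with a median over the 9 of 0.26 beside 0.01 for all genes. In senescent marrow 0 were called by limma (background 0.0484%), and again Il1rn alone had an unadjusted p under 0.05 (background 6.36%). The other 8 spanned -0.27 to 0.38 with a median over the 9 of 0.01.

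Between the fusion states of marrow, Cxcl2 and Ccl3 had the smallest p-values of all 12394 genes in both comparisons that involve transition, and neither passed the adjusted threshold. Transition exceeded proliferation by 3.60 ± 0.60 (SE) for Cxcl2 and by 2.45 ± 0.44 for Ccl3, with adjusted p-values by limma of 0.331 and 0.418. Senescence was below transition for Ccl3 by a difference of -2.83 ± 0.48 and for Cxcl2 by -3.48 ± 0.65, with adjusted p-values by limma of 0.405 and 0.528. Cxcl2 in proliferation and Ccl3 in senescence were near background, so these sizes too are differences of probe signals. No gene of the 12394 was called in either comparison (0% of all genes), while 2.15% and 3.07% had unadjusted p-values under 0.05. Of the 9, 3 had unadjusted p-values under 0.05 and lay higher in transition than in proliferation (Cxcl2, Ccl3 and Ccl4, with Ccl4 at 0.52 ± 0.19). All 3 separated these groups, as did 0.791% of all genes in that direction. In senescence 4 lay lower than in transition at that level (also Ccl4 at -0.66 ± 0.20 and Tnf at -0.97 ± 0.31). Cxcl2, Ccl3, Ccl4, Tnf and Il1b did not overlap between senescence and transition, which held for 1.78% of all genes in that direction. Between senescence and proliferation 0 of the 9 were called by limma and 0 had an unadjusted p under 0.05 (backgrounds 0% and 1.01%), and the differences spanned -0.46 to 0.27.

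**Figure D2:**
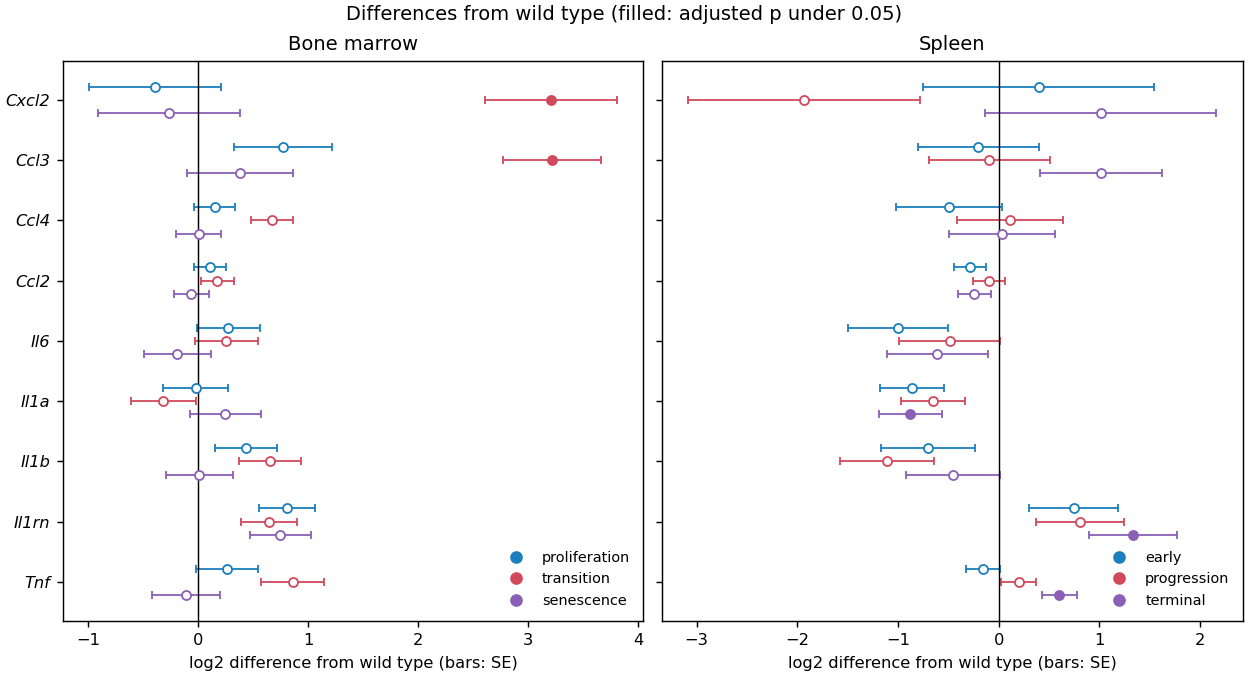
Difference of each fusion group from wild type of the same tissue in log2 units, with standard errors, for the 9 genes. Filled points passed an adjusted p of 0.05 by limma, which were Cxcl2 and Ccl3 in transition marrow and Il1rn, Tnf and Il1a in terminal spleen.

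Within the transition marrows the first array was the highest of the 4 for 7 of the 9 genes and the lowest for Il1rn, whereas it was the highest for 27.7% of all genes. Without it, Cxcl2 and Ccl3 still passed the test, at 2.53 and 2.75 above wild type and adjusted p-values by limma of 0.013 and 0.00223. The immediate early genes, which are transcribed minutes after a stimulus, tissue handling included, were measured beside them. Averaged over 23 such genes, the transition arrays lay 1.39, 0.60, 0.30 and 0.75 above the wild-type mean, with the first array highest, as for Cxcl2. The proliferating arrays lay 0.13 to 0.26 above it and the senescent ones 0.00, 0.22 and 0.35 above it. Of the 23, 2 were called higher in transition than in wild type, Ier2 at 1.24 ± 0.21 (adjusted p by limma 0.0149) and the prostaglandin synthase gene Ptgs2 at 2.20 ± 0.43 (0.04), and 13 had an unadjusted p under 0.05. In that comparison 0.42% of all genes were called and 10.5% had an unadjusted p under 0.05, in either direction. The part of these genes in the chemokine difference was not tested.

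Over the 15 marrow arrays, the genes whose levels were most like Cxcl2 by Pearson's r were Ptgs2 (0.934), Rpp25 (0.864) and Plk3 (0.855). For Ccl3 they were Ptgs2 (0.883), Rhob (0.867) and Sucnr1 (0.856). These values describe arrays that share groups, and the 4 transition arrays carry much of the range. The gap between the 3' and 5' Gapdh probe sets, which grows as RNA breaks down, was 1.87 on the first transition array and 1.18 to 1.36 on the others, beside 1.57 to 1.83 in wild type. With that gap as a covariate Ccl3 remained past the threshold, at 3.50 ± 0.48 (adjusted p by limma 0.00705), and Cxcl2, at 3.45 ± 0.67, did not (0.078).

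**Figure D3:**
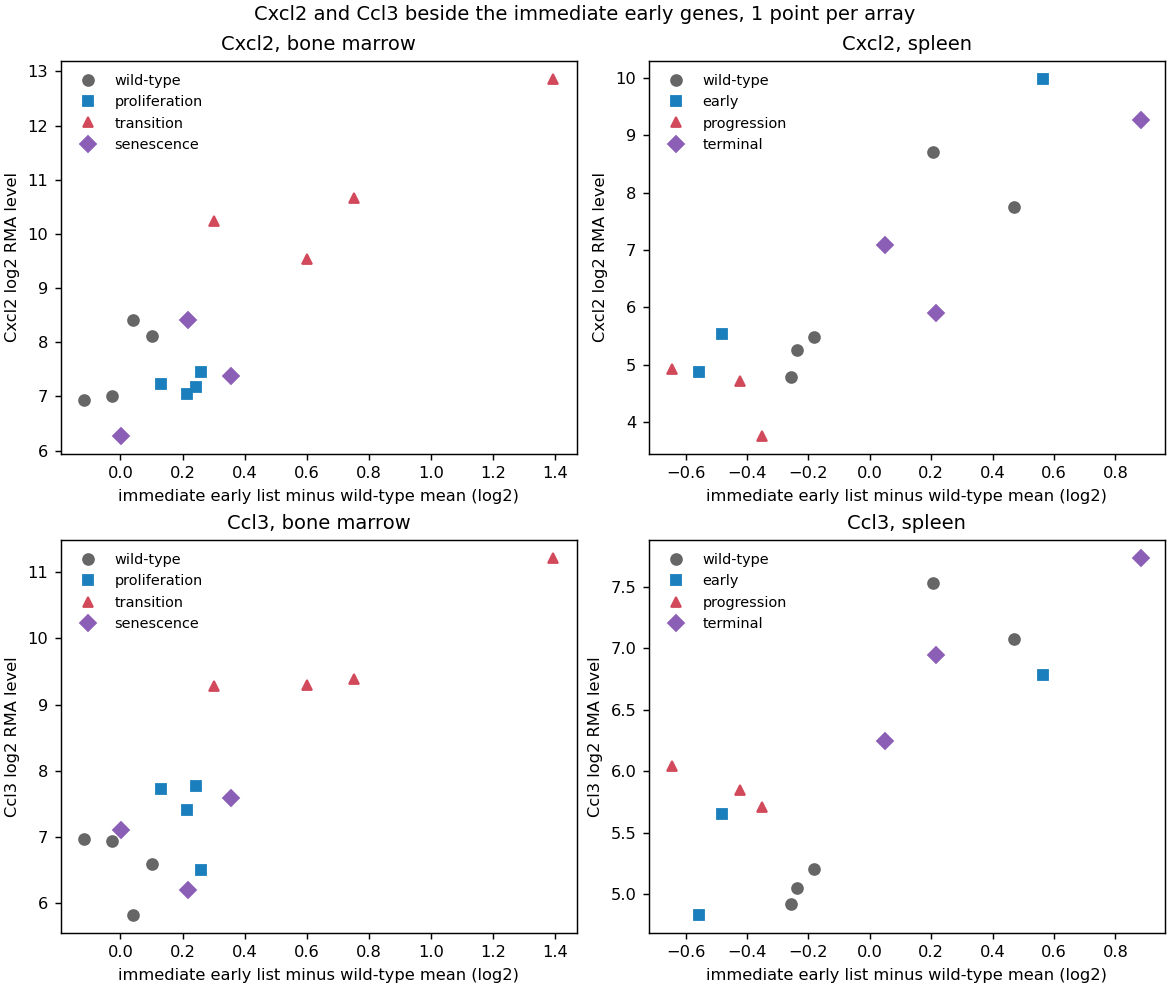
Log2 RMA level of Cxcl2 and Ccl3 against the mean of 23 immediate early genes minus the wild-type mean (log2), with 1 point per array, in marrow and in spleen. In marrow the first transition array lies farthest to the right, at 1.39, and highest for both chemokines, and in spleen the arrays with a list mean above 0 have Cxcl2 at 5.90 or more and Ccl3 at 6.25 or more.

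Cell types of the tissue were followed by marker lists, and which cells made the messages was not measured. In marrow 0 of 10 neutrophil and 0 of 9 monocyte markers were called by limma between transition and wild type, and 1 and 5 of them had an unadjusted p under 0.05, all higher in transition. The median difference was 0.09 for neutrophil and 0.61 for monocyte markers, and the mean monocyte level ranged from 11.2 to 12.3 in transition and from 11.1 to 11.5 in wild type. In senescent marrow the monocyte median was 0.62. Between transition and wild type, 2 of 9 B-cell markers were called lower and 8 had an unadjusted p under 0.05 (median -1.37). Of 12 tissue macrophage markers 1 was called lower in transition. No megakaryocyte or erythroid marker was called by limma in transition. At an unadjusted p under 0.05, 7 of 9 and 1 of 9 were lower there, with medians of -1.91 and -0.87. Between transition and wild type 0.42% of all genes were called and 10.5% had an unadjusted p under 0.05, in either direction. The part of these cells in the chemokine values was not tested.

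In marrow, the genes around the chemokines were followed in lists of receptors (10 measured), signalling and processing genes (16), NF-kappaB genes (13), message decay genes (10), other inflammatory chemokines (17), other cytokines (18) and secreted senescence genes (24). None of these 108 list entries was called by limma in any of the 6 marrow comparisons. At an unadjusted p under 0.05, 15 were higher and 7 lower in transition than in wild type, beside 10.5% of all genes in either direction. Those with the smallest p-values included Zfp36, whose product drives decay of AU-rich messages such as Tnf, at 1.50 ± 0.33 (SE, adjusted p by limma 0.0712) and above wild type on 4 of 4 arrays. The NF-kappaB subunit gene Rel was at 0.48 ± 0.12 (0.149), the chemokine Ccl9 at 0.97 ± 0.24 (0.122), the inflammasome sensor Nlrp3 at 0.72 ± 0.21 (0.208) and the platelet chemokine Pf4, which is also on the megakaryocyte list, at -1.91 ± 0.53 (0.188). Of the 24 secreted senescence genes none had an unadjusted p under 0.05 in transition, and the smallest p belonged to Timp2 at 0.34 ± 0.21.

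In spleen none of the 4 chemokines was called in any of the 6 comparisons, and Cxcl2 and Ccl3 varied widely within the early, terminal and wild-type groups. With the Xist level as a covariate, Ccl2, at near-background levels, was called in terminal against wild-type spleen. In terminal spleen, Il1rn and Tnf were higher than in wild type and Il1a was lower at near-background levels. Early and progression spleens had 0 of the 9 called by limma against wild type, although 15.9% and 19.3% of all genes were called there. At an unadjusted p under 0.05 each had 1, lower in both cases (backgrounds 28.7% and 33.5%), and the other 8 differences spanned -1.0 to 0.75 in early and -1.93 to 0.81 in progression. In terminal spleen 3 of the 9 were called, against 34.5% of all genes (42.6% at an unadjusted p under 0.05), so the share in the set was close to the background, and the other 6 spanned -0.61 to 1.02. The median over the 9 was 0.03, beside 0.04 over all genes.

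Cxcl2 lay at 5.54, 4.88 and 9.98 in early spleen, at 4.72, 4.92 and 3.76 in progression, and at 5.90, 9.26 and 7.10 in terminal spleen. Wild-type spleens were at 8.72, 5.49, 5.27, 4.78 and 7.76, with the first and last high. Values in wild type thus covered most of the range of the fusion mice, and the progression mean of 4.47 ± 0.62 (n = 3) was near background. The means of the other groups were 6.80 ± 2.77 (n = 3) in early, 7.42 ± 1.71 (n = 3) in terminal and 6.40 ± 1.73 (n = 5) in wild-type spleen, which do not differ beyond their spread. Terminal exceeded progression by 2.95 ± 1.28 (SE) on 3 of 3 arrays, a difference of probe signals against a near-background level, with an adjusted p of 0.17 by limma, and 5.86% of all genes were called in that comparison.

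Ccl3 lay at 5.65, 4.83 and 6.78 in early, at 5.84, 6.04 and 5.71 in progression, at 6.94, 7.73 and 6.25 in terminal, and at 7.53, 5.21, 5.05, 4.92 and 7.07 in wild-type spleen. Here too the third early array and the first and last wild-type arrays were the high ones of their groups. Terminal and progression values did not overlap, as for Cxcl2, and terminal exceeded progression in this way for 12.9% of all genes. Ccl4 lay at 7.07, 6.79 and 6.31 in early, at 7.38, 7.96 and 6.64 in progression, at 7.17, 7.43 and 7.13 in terminal and at 9.32, 6.81, 6.29, 6.62 and 7.03 in wild-type spleen. The terminal values were above the early ones, and the first wild-type array stood 1.36 above any other spleen array. Ccl2 ranged from 4.40 to 5.07 and was near background in all groups.

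**Figure D4:**
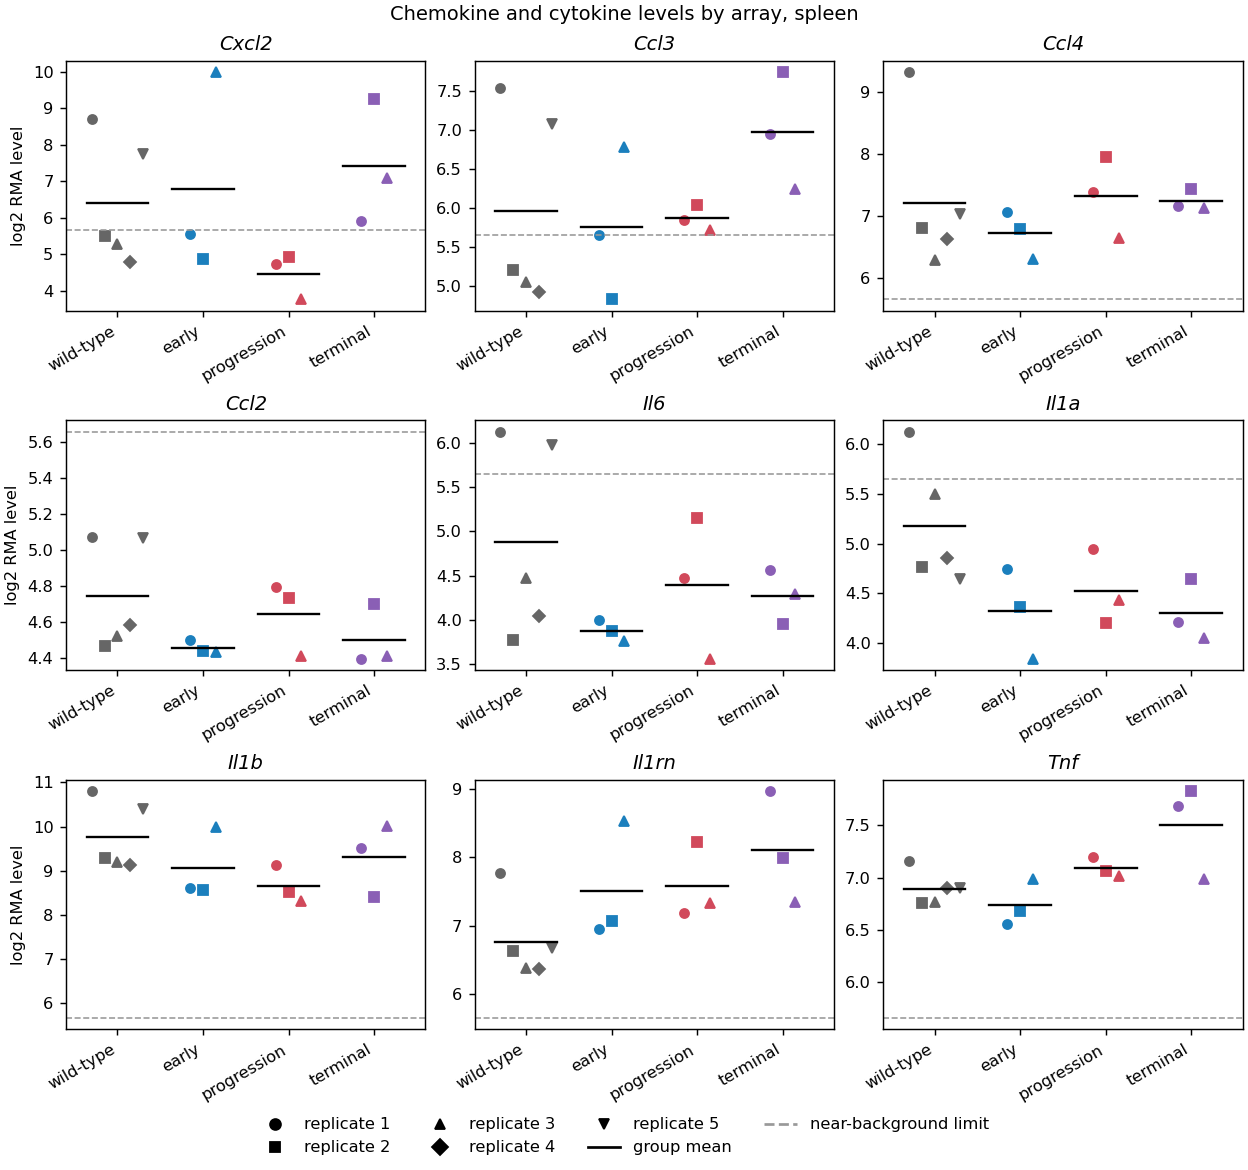
Log2 RMA levels of the 9 genes in spleen, with 1 point per array, a line at each group mean and a dashed line at the near-background limit of 5.65. The first wild-type array is the highest of its group for all 9 genes, and Tnf in terminal spleen, at 6.99 to 7.83, lies above all 3 early arrays.

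The spleen arrays with high Cxcl2 and Ccl3 were also those with high immediate early genes. The list of 23 lay above the wild-type mean on the third early array (0.56), on the terminal arrays (0.21, 0.88 and 0.05) and on the first and last wild-type arrays (0.21 and 0.47). It lay below that mean on the other 8 arrays, by -0.18 to -0.64. The 6 arrays above had Cxcl2 at 5.90 or more and Ccl3 at 6.25 or more, and the 8 below had Cxcl2 at 5.54 or less and Ccl3 at 6.04 or less. Over 14 spleen arrays, the genes most like Cxcl2 by Pearson's r were the stress phosphatase gene Dusp1 (0.887), Jun (0.872) and Xpa (0.859). For Ccl3 they were Efcab7 (0.825), Isoc2b (0.825) and Zmat5 (0.819).

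Tnf lay at 7.68, 7.83 and 6.99 in terminal spleen and at 7.16, 6.75, 6.77, 6.90 and 6.90 in wild type. Early spleens were at 6.56, 6.68 and 6.98 and progression spleens at 7.20, 7.06 and 7.02. The first and second terminal arrays were above every other spleen array, and the third was above all early ones by little. Terminal exceeded wild type by 0.60 ± 0.17 (SE, 95% interval 0.23 to 0.98), or 1.52-fold, with an adjusted p of 0.014 by limma, and 2 of 3 terminal arrays lay above all wild-type ones. It exceeded early spleen by 0.76 ± 0.19 (95% interval 0.35 to 1.17), or 1.69-fold, with an adjusted p of 0.0324 by limma, on 3 of 3 arrays. That made Tnf the 1 gene of the set called between terminal and early spleen, where 6.61% of all genes were called and 24.5% had an unadjusted p under 0.05. Terminal arrays all lay above early ones for Tnf and Ccl4, as for 13.8% of all genes. Without the first or second terminal array the difference from wild type was 0.51 or 0.44 and lost its call (adjusted p by limma 0.0704 and 0.0916). The difference from early spleen, at 0.60 to 0.73, lost its call without either of these or without early array 1 or 2 (adjusted p by limma 0.103 to 0.13).

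Il1b lay at 8.60, 8.57 and 10.00 in early, at 9.13, 8.51 and 8.32 in progression, at 9.51, 8.40 and 10.02 in terminal and at 10.80, 9.28, 9.19, 9.13 and 10.40 in wild-type spleen. The progression arrays were below every wild-type array, although the highest of them and the lowest wild-type array both round to 9.13, and 11.7% of all genes separated these groups in that direction. Their difference was -1.11 ± 0.47 (SE, 95% interval -2.11 to -0.10), with an adjusted p of 0.115 by limma, and it was -0.85 without the first wild-type array. The genes most like Il1b over the spleen arrays were Ptgs2 (r = 0.864), Sncaip (0.848) and Ubac2 (0.777).

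Il1a lay at 4.21, 4.64 and 4.05 in terminal and at 6.12, 4.77, 5.50, 4.86 and 4.65 in wild-type spleen, all group means being near background. The difference was -0.88 ± 0.32 (SE), with an adjusted p of 0.0451 by limma, on 3 of 3 arrays, and 18.2% of all genes had no terminal array as high as any wild-type one. Its call was lost without wild-type array 1, at -0.64 (adjusted p by limma 0.0752), without wild-type array 3, at -0.80 (0.092), and without terminal array 1 or 3, at -0.83 and -0.75 (0.119 and 0.153). The early difference of -0.86 ± 0.32 (0.0836) was -0.62 (0.122) without wild-type array 1. Il6 ranged from 3.56 to 6.13, with its highest values, 6.13 and 5.98, on the first and last wild-type arrays. Its mean was near background in all 4 spleen groups. The genes most like it were Fgfr1 (0.842), Cd160 (0.827) and Ms4a2 (0.800).

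Il1rn in spleen was read from probe set 1423017_a_at, at 8.96, 7.99 and 7.35 in terminal and at 7.77, 6.63, 6.39, 6.38 and 6.67 in wild-type spleen. Early spleens were at 6.95, 7.06 and 8.53 and progression spleens at 7.18, 8.22 and 7.33. All 9 fusion arrays were above 4 of the 5 wild-type arrays, and the first wild-type array, from the mouse treated for 24 months, was the exception. Terminal exceeded wild type by 1.33 ± 0.44 (SE, 95% interval 0.39 to 2.28), or 2.52-fold, with an adjusted p of 0.0298 by limma. Without the first wild-type array the difference was 1.58 (adjusted p by limma 0.0098). The call was lost without terminal array 1, at 0.90 (0.17), without terminal array 2, at 1.39 (0.0641), and without any 1 of wild-type arrays 2 to 5, at 1.24 to 1.31 (0.0541 to 0.0645). It was also lost with the Xist level as a covariate (1.24, adjusted p by limma 0.0837). The same held without wild-type array 3 and early array 1, left out for RNA of another tissue (1.24, adjusted p by limma 0.0645). Wild-type array 5, whose pancreas genes were also raised, stayed in that fit. Early and progression means of 7.51 ± 0.88 (n = 3) and 7.58 ± 0.56 (n = 3) lay between those of wild type, 6.77 ± 0.58 (n = 5), and terminal, 8.10 ± 0.81 (n = 3), and neighbouring groups in that order overlapped. The genes most like Il1rn over the spleen arrays were Plbd1 (0.916), Yipf1 (0.909) and Retnla (0.909).

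Against wild type, the other Il1rn probe sets gave the same direction. In terminal spleen 1425663_at was higher than wild type by 1.06 ± 0.28 (SE) and 1451798_at by 1.67 ± 0.47, with adjusted p-values over all probe sets of 0.0105 and 0.0137 by limma, so all 3 were called. On 1425663_at wild-type spleen was near background (mean 5.39), so that size is a difference of probe signals. Of 3 terminal arrays, 0 lay above every wild-type array on 1425663_at, 1 on 1451798_at and 2 on 1423017_a_at. In marrow the 3 disagreed in size and in which arrays lay above wild type. From proliferation to transition they also differed in direction, at -0.17 on 1451798_at, 0.03 on 1425663_at and 0.33 on 1423017_a_at. On 1425663_at, 2 of 4 proliferating, 3 of 4 transition and 1 of 3 senescent arrays lay above every wild-type array. On 1423017_a_at these were 2 of 4, 4 of 4 and 2 of 3. In proliferation, 1425663_at differed from wild type by 0.79 ± 0.33 and 1423017_a_at by 0.16 ± 0.15. In transition they differed by 0.83 ± 0.33 and 0.49 ± 0.15, and in senescence by 0.49 ± 0.35 and 0.24 ± 0.16, with no adjusted p below 0.278 by limma. The first transition array was the lowest of its group on each of the 3.

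**Figure D5:**
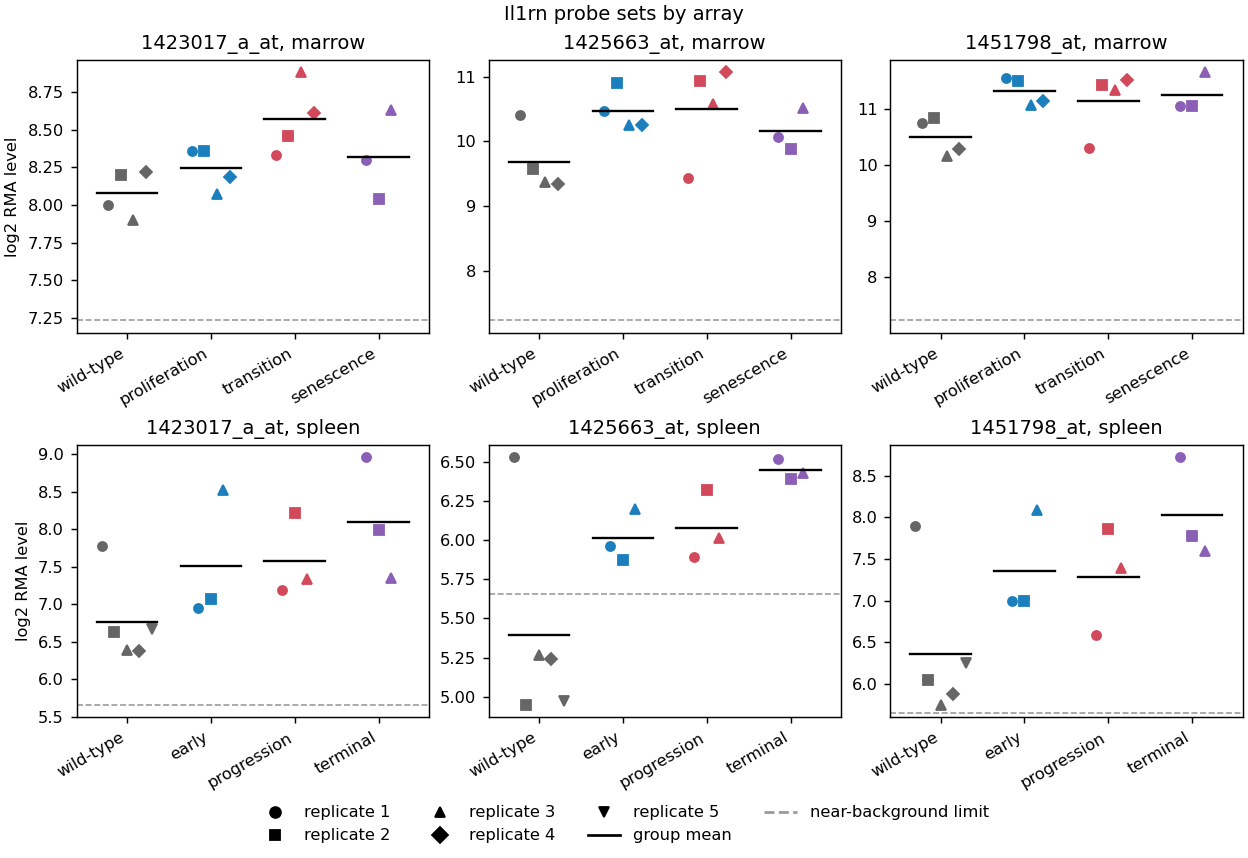
Log2 RMA levels of the 3 Il1rn probe sets by array in marrow and spleen, with a line at each group mean and a dashed near-background limit. The first transition marrow array is the lowest of its group on all 3, at 10.30 on 1451798_at, and the first wild-type spleen array is the highest of its group on all 3, at 7.77 on 1423017_a_at.

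The first wild-type spleen array was the highest of its 5 for all 9 genes of the set, against 36.2% of all genes. It came from the mouse with the longest treatment, 24 months, and the other wild-type spleens from mice treated for 8 to 11 months. Terminal mice had 19 to 23 months, so this array was the wild-type one nearest to them in time. With 1 such array, age and this sample's own state cannot be told apart. Wild-type array 3 had the highest pancreas genes. Without it and the first wild-type array, terminal spleen kept Tnf (0.65, adjusted p by limma 0.0262) and Il1rn (0.0248) past the threshold and not Il1a (-0.45, 0.198).

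Levels of marker genes of several cell types differed between the spleens of fusion and wild-type mice. All 10 neutrophil markers were called higher in terminal spleen, with a median difference of 1.52, and 6 of 9 monocyte markers were called higher and 1 lower. Of 12 tissue macrophage markers 11 were called lower (median -1.42), and of 9 B-cell markers 9 (median -3.35). Over all genes, 34.5% were called in terminal and 15.9% in early spleen against wild type, in either direction. In early spleen, neutrophil markers were higher as well (9 of 10, median 1.34). The part of these cells in the values of Il1rn, Tnf and Il1a was not tested.

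Several receptors for these ligands were higher in the spleens of fusion mice. Of 10 measured receptors, 3, 4 and 7 were called higher in early, progression and terminal spleen, and 0, 1 and 1 lower. Over all genes 15.9%, 19.3% and 34.5% were called in these comparisons in either direction. In terminal spleen Cxcr2, the receptor for Cxcl2, was higher by 2.73 ± 0.32 (SE, adjusted p by limma 1.75e-05), Ccr1, a receptor for Ccl3, by 2.51 ± 0.41 (0.000329), Ccr2, the receptor for Ccl2, by 2.44 ± 0.28 (1.66e-05) and the tumor necrosis factor receptor gene Tnfrsf1a by 1.73 ± 0.15 (1.67e-06). Ccr2 is on the monocyte list as well, so the receptor and monocyte counts share it. Cxcr2 was also higher in terminal than in progression spleen, by 1.70 ± 0.35 (0.0135). Of 13 NF-kappaB genes 5, 5 and 4 were called lower than wild type and 0 higher, and the share called in terminal spleen was near that of all genes. Among them were Relb at -1.85 ± 0.29 and Nfkbie at -1.64 ± 0.21 in terminal spleen. Of 16 signalling and processing genes 4 were called higher and 1 lower in terminal spleen, including the adaptor genes Myd88 at 1.11 ± 0.17 and Pycard at 1.01 ± 0.16.

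Among 17 other inflammatory chemokines, Ccl9 was called higher in terminal spleen, at 2.64 ± 0.34 (SE), and 6 were called lower, such as the lymphocyte-attracting genes Cxcl9 at -2.04 ± 0.38 and Ccl5 at -1.69 ± 0.31. Of 18 other cytokines 2 were called higher and 6 lower, with the lymphotoxin gene Lta at -2.55 ± 0.24. Of 10 message decay genes 1 was called higher and 2 lower, with Zfp36l1 at -2.35 ± 0.22. Of 24 secreted senescence genes 4 were called in each direction, among them Mmp9 at 2.84 ± 0.36 and Igfbp7 at -4.68 ± 0.63, which is again near the 34.5% of all genes called. Marker lists of several cell types moved in the same comparison, and the part of those cells in the counts was not tested.

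Between the fusion stages of spleen the set held few calls. Progression and early spleen had 0 of the 9 called by limma and 0 with an unadjusted p under 0.05, where 0% and 7.34% of all genes were, and the differences spanned -2.33 to 0.61. Terminal and progression spleen had 0 called by limma and 1, Cxcl2, with an unadjusted p under 0.05 (background 25.2%), and the other 8 spanned -0.23 to 1.11. In terminal against early spleen the 8 genes other than Tnf spanned -0.02 to 1.22, with a median over the 9 of 0.52 beside 0.02 over all genes.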

How the data were processed

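Levels of 22690 probe sets were taken on 29 arrays as the log2 values the authors deposited. RMA, affy and limma were used to make them, per the submitters' processing notes, with versions and genome build not given in the sources used here. No depth exists for arrays, and the number of arrays limits the precision. The medians differ between tissues, so the tissues were probably normalized apart and were fitted apart.

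Of the probe sets 20393 had 1 symbol, 691 had several and 1606 were not listed. The brightest probe set stood for each of 12394 genes, with no filter on dim ones. In each tissue 1 limma model (limma 3.58.1, R 4.3.3, lmFit and eBayes) of 4 groups gave 6 comparisons, with Benjamini-Hochberg adjustment over all genes and a threshold of 0.05. The procedure was tested on simulated data. The 9 genes and the lists around them were chosen with earlier results of these data known. Differences are given for genes of the set with an unadjusted p under 0.05, and others as a range. From each list the genes with the smallest p-values were eligible to be named, at most 4 per comparison, and of likeness the top 3 by Pearson's r for genes whose group means spanned more than 1 log2 unit. Same-numbered replicates were not treated as pairs. Alternatives were quantile normalization, a filter on dim genes, other variance models, covariates, a replicate block and arrays left out. Promoters came from RefSeq (GRCm38.p6).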

Additional observations from a re-analysis of the deposited data

Results flagged for a closer look

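Of 36 sets of 4 or 5 arrays examined, 1 set per gene and group, 5 had an array far from the others, and chance alone gives about 5% of such sets. The first transition marrow array was high for Ccl3, at 11.2 with the next array at 9.39, and low for Il1rn, at 10.3 with the next at 11.3. The first wild-type spleen array was high for Ccl4, at 9.32 with the next at 7.03, and for Il1rn, at 7.77 with the next at 6.67. The first wild-type marrow array was low for Tnf, at 8.02 with the next at 8.47. Groups of 3 were too small for this check.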

How the results depend on the processing

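Arrays give no depth, and dim genes limit what can be said. With genes under the median level left out, only Il1b and Il1rn, 2 of the 9, could be tested in each tissue. Of the gene differences given, refitted without 1 array at a time, 146 kept their direction and side of the threshold, 20 lost a call and 1 gained one. Under the other alternatives 234 kept both, 19 lost a call and 8 gained one. None reversed. Genes of the set called in transition against wild-type marrow (2 as reported) numbered 1 after quantile normalization again, with only the 2 groups in the fit, with a trended and robust variance, and with the Xist level or the Gapdh gap as a covariate, 0 among genes above the median level, 5 with array weights (where 16% of all genes were called), and 1 to 3 without 1 array at a time (1 without array 3 or 4 of transition or of wild type, 3 without the first transition array). Ccl3 kept its call in all 19 alternatives that tested it (2.62 to 3.50), which leaves out the fit of genes above the median level. With array weights 1 gene was called in proliferation against wild-type marrow (9.85% of all genes), 2 in transition against proliferation marrow (0.0242%), 1 in early against wild-type spleen (46%) and 2 in terminal against early spleen (28%). Quantile normalization again gave 1 in early against wild-type spleen. In terminal against wild-type spleen (3 as reported) 1 was called among genes above the median level. Without wild-type array 3 and early array 1, left out for RNA of another tissue, 1 was also called. Without 1 array at a time 0 to 2 were called (0 without the first terminal array, 1 without the second or without the third wild-type array). With the Xist covariate 4 were called there (Ccl2, Il6, Il1a and Tnf, not Il1rn), against 29.3% of all genes. In terminal against progression spleen 0 to 1 was called without 1 array at a time (1 without the third terminal array). In terminal against early spleen (1 as reported) 0 were called among genes above the median level, with only the 2 groups and with the Xist or Gapdh covariate. Without wild-type array 3 and early array 1, 0 were called as well, and without 1 array at a time 0 to 1. Leaving out wild-type spleen arrays 1 and 3 was chosen after seeing the data. Causes were not tested, other than fewer genes tested under the median filter.

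Deviations of same-numbered arrays from their group means had a median correlation of 0.09 in marrow (-0.43 to 0.55) and 0.01 in spleen (-0.32 to 0.23). Arrays of different number had medians of -0.02 and -0.01. With the replicate number as a replicate block, 1 gene of the set was called in early and 1 in terminal against wild-type spleen, and 0 in terminal against early spleen. Under it Il1rn (1.17, adjusted p by limma 0.167) and Tnf (0.61, 0.0722) lost their calls in terminal against wild-type spleen. All genes called with the block were 2948 against 4270 in terminal, 825 against 1971 in early and 1111 against 2386 in progression spleen compared with wild type.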
